A study of Zea mays with 12 samples.

Results

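N6-methyladenosine (m6A) peaks were described along the genes of B73, the maize inbred line on which the reference genome is built, and set beside total RNA levels. The material was 14-day-old seedlings grown with 16 h of light (28 °C) and 8 h of darkness (25 °C) a day, and the labels name no treatment or mutant allele. The 4 samples taken from the 12 of the series were the 2 B73 m6A-seq samples, in which an antibody to m6A enriches RNA fragments, and the 2 B73 RNA-seq samples, in which total RNA is sequenced without enrichment. The m6A lists held 17399 and 16161 peaks, of 64785 peaks in the 4 lists of the series. The labels do not say whether the replicates came from separate plants, so the spread between them may be technical. Mo17, another inbred line, entered a single comparison through its 2 m6A and 2 RNA samples.

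In plants, m6A is added to messenger RNA by a nuclear writer complex built around METTL3- and METTL14-type methyltransferases, is removed by demethylases of the AlkB family and is bound by readers with a YTH domain. It is known to lie mainly near stop codons and in 3′ untranslated regions, and it has been linked to transcript stability, to the choice of polyadenylation site and to translation. A peak here is an interval in which the antibody sample was enriched over its control, and its summit is the base of highest enrichment. Peaks carry no strand. The gene models are those listed in the deposited B73 RNA tables, on the build B73 RefGen_v4 per the submitters' processing notes, given as spans from start to end with introns included, so a summit could be placed along a gene but not in an exon, an intron or an untranslated region. The files and the reference table used here pair the gene model identifiers with no names, so genes are given by identifier and position without a role, and the seedling label could not be checked against marker genes.

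Each peak was short. The median width was 126 bp in replicate 1 and 131 bp in replicate 2. In replicate 1, 90% of the widths lay between 51 and 318 bp, and in replicate 2 between 51 and 322 bp. Widths of 300 bp or more made up 6.44% and 6.83% of the peaks, and 10 and 6 peaks reached 1000 bp. All peaks of a list together covered 2613 and 2472 kb.

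The fold of a peak is the authors' own ratio of enrichment at the summit and serves here to describe peaks within a list. Its median was 6.83 in replicate 1 and 7.29 in replicate 2, and the highest folds were 31.1 and 34.8. Folds of 20 or more were found for 253 and 351 peaks. Wide peaks tended to have higher folds, with a Spearman correlation of 0.327 and 0.323 across the peaks of a list; peaks of a list share a library and are not independent. Many peaks shared the same fold to the last digit deposited. In replicate 1, 397 peaks had a fold of 5.66, in replicate 2, 251 had a fold of 6.74, and the most common values lay 0.498 and 0.549 apart. Peaks on these evenly spaced values, within 0.0005, made up 19.5% and 14.7% of the lists. They lay in genes with a median of 1.703 and 1.46 FPKM, against 5.37 and 5.33 FPKM for the other assigned peaks. FPKM is the RNA level per length of gene and per size of library. In genes of under 5 FPKM, 25.6% and 19.9% of the peaks were on these values, and in genes of 50 FPKM or more, 0.831% and 0.509%. The fold was thus a stepped quantity mainly at weakly expressed genes.

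The lists of both replicates placed their common peaks at nearly the same base. Of 13997 pairs of peaks that overlapped best with each other, 58.0% had summits within 10 bp, 90.0% within 50 bp, and the median separation was 8 bp. Folds repeated less closely than positions. Within the pairs, the log2 ratio of the fold in replicate 2 over replicate 1 had a median of 0.06 and an SD of 0.57 across pairs, and 71.4% of the pairs agreed within 1.5 times.

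Whether a peak was found again in the other list went with its width and position. In the narrowest quintile of the peaks, 52.9% of replicate 1 and 62.3% of replicate 2 were overlapped by a peak of the other list, against 98.5% and 99.4% in the widest quintile. In the quintile of highest fold the shares were 99.5% and 99.4%. They did not rise evenly with fold, at 75.6% and 79.5% in the lowest quintile and 63.1% and 78.3% in the one above it. Summits in the last 500 bp of a gene were overlapped in 92.9% and 92.5% of cases, and summits 2000 bp or more from the 3′ end in 59.8% and 75.9%. Peaks without a partner numbered 3167 and 2020, with median widths of 71 and 65 bp, against 145 and 145 bp for peaks with one. Narrow and internal peaks were thus found again less often in both lists. An overlap of 1 bp was enough, which a wide peak meets more easily. Peaks with summits 2000 bp or more from the 3′ end were themselves narrow, with median widths of 102 and 103 bp. Position was not matched for width.

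The 3′ end of the gene was where most summits lay. All assigned summits, 14513 in replicate 1 and 13716 in replicate 2, fell in gene models, and 0 fell in the 1635 ENSRNA features or the 154 microRNA genes of the table. A feature inside a gene model could be assigned none, since summits in several spans were left out. Expressed ENSRNA and microRNA features had median spans of 119 and 123.5 bp. Of all gene models under 1 kb, 0.692% had a peak in both lists, so the 0 says little about these features. Of the assigned summits, 69.3% and 73.03% were in the last 500 bp of the span, and 1.98% and 1.84% were in the initial 500 bp. The fullest 50 bp step was the one from 100 to 150 bp before the end, with 2044 and 2085 summits. Density dropped sharply at the annotated end itself. The last 50 bp of the spans held 2.65% and 2.98% of the peaks of a list, against 11.6% and 12.5% in the 50 bp before them. Genes on the plus and minus strands did not differ beyond the replicates, with median distances of 239 and 218 bp on the plus strand and 224 and 211 bp on the minus strand.

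**Figure D1:**
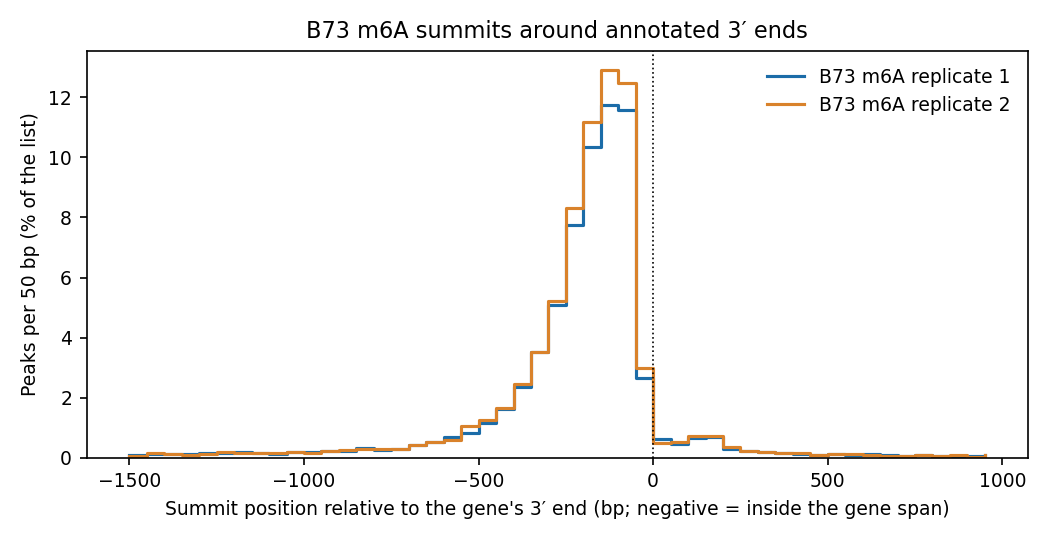
Share of the peaks of each B73 m6A list (%) per 50 bp step of distance between the summit and the 3′ end of the gene that holds it or, outside all spans, of the nearest gene. Both replicates crest between 50 and 150 bp before the annotated end and fall off sharply at the end itself.

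The distance in base pairs from the 3′ end to the nearest summit changed little with the length of the gene. Taking the summit nearest to the 3′ end in each gene, the median distance was 160 and 158 bp in genes of 2 to 4 kb, 167 and 165 bp in genes of 4 to 8 kb, and 205 and 205 bp in genes of over 16 kb. Quartiles over all genes were 105 and 277 bp in replicate 1 and 104 and 271 bp in replicate 2, so these medians differ by far less than genes of 1 class do among themselves. A summit in the last 500 bp was present in 88.6% and 89.1% of the genes with a peak. The share was 91.7% and 92.4% in genes of 2 to 4 kb and 82.0% and 83.5% in genes of over 16 kb. In genes of under 1 kb nearly any position is within 500 bp of the end, and the share there, 93.5% and 94.1%, says little. Over all assigned summits, the median distance did change with span. It was 172 and 168 bp in genes of 2 to 4 kb and 8126.5 and 6182 bp in genes of over 16 kb.

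Position went with the size of the peak. Peaks in the last 500 bp had a median width of 147 and 149 bp and a median fold of 7.50 and 7.95. Peaks further inside had a median width of 104 and 106 bp and a median fold of 6.16 and 6.34. The 247 and 211 peaks in the initial 500 bp, outside the last 500 bp, had the lowest medians, at 90 and 97 bp and folds of 4.63 and 4.44. The order of the 3 positions was the same in both replicates for both measures. It was not matched for RNA level, which was a median of 4.79 and 4.82 FPKM for the last 500 bp, 4.04 and 4.22 further inside and 5.71 and 5.72 at the start.

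The 6 expressed genes of highest fold all had that peak at the 3′ end. Expressed here means at least 1 FPKM in both RNA libraries. Zm00001d013653 (chromosome 5, 16258269 to 16286212, plus strand) led with folds of 27.5 and 29.5, its summits 111 and 127 bp from the end of a span of 27944 bp, at 2.55 and 2.85 FPKM. Zm00001d042213 (chromosome 3, 156286694 to 156310438, minus strand) had folds of 26.8 and 28.6, and Zm00001d002938 (chromosome 2, 27443632 to 27447830, minus strand) had 30.6 and 24.8, a pair that shows the spread between lists. Zm00001d037867 (chromosome 6, 140348149 to 140388721, plus strand) had 27.5 and 26.4. Zm00001d025294 (chromosome 10, 112973342 to 112984868, plus strand) had 26.9 and 26.4. Zm00001d033776 (chromosome 1, 273326665 to 273347324, minus strand) had 25.5 and 27.7. The 6 top summits lay between 111 and 248 bp from the end, and RNA levels were low, between 1.38 and 3.58 FPKM in the single libraries. Since these genes were chosen by fold, their folds are a description, and their order among themselves is within the spread between lists.

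A single peak was the rule. Of the gene models with a peak, 8909 of 10805 (82.5%) in replicate 1 and 9137 of 10803 (84.6%) in replicate 2 had exactly 1, 11.7% and 10.96% had 2, and 5.88% and 4.46% had 3 or more. The mean was 1.34 and 1.27 peaks per gene, 1.31 ± 0.05 over both lists (SD, n = 2). Of the 10098 gene models with a peak in both lists, which were 23.1% of all 43788, 8654 (85.7%) had the same number in each and 7852 had 1 in each. Where the numbers differed, replicate 1 had more in 947 genes and replicate 2 in 497.

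In genes with 2 peaks, the peak farther from the 3′ end mostly lay outside the last 500 bp and mostly had the lower fold. The peak nearer the 3′ end had its summit a median of 154 and 156.5 bp from the end, with a median fold of 7.66 and 7.95. The other peak was a median of 1563 and 1955 bp from the end, with a median fold of 5.44 and 5.71. The peak nearer the end had the higher fold in 74.4% of the 1261 genes of replicate 1 and in 71.3% of the 1184 genes of replicate 2. The initial 10% of the span held the farther peak in 8.56% and 9.46% of these genes, and the last 500 bp held it in 31.4% and 27.7%.

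The number of peaks went with the span of the gene, and in the longest genes also with RNA level. Genes with 1 peak in both lists had a median span of 4881 bp, genes with 2 in both 7236 bp, and the 412 genes with 3 or more in both 17827 bp. Their median RNA levels in the RNA libraries were close, at 4.95 and 5.08 FPKM, 4.86 and 5.06 FPKM, and 4.17 and 4.31 FPKM. Among expressed genes of over 16 kb, 40.2% and 30.8% of those with a peak had 3 or more, against 0.762% and 0.754% in genes of 2 to 4 kb. The spread between replicates was widest in the longest genes, at 3.09 and 2.59 peaks per gene. The median RNA levels above were not matched for span. Within genes of over 16 kb, peaks per gene with a peak rose with RNA level. They were 2.55 and 2.04 between 1 and 2 FPKM and 3.88 and 3.58 between 20 and 50 FPKM. In genes of 2 to 4 kb they were 1.07 and 1.07, and 1.09 and 1.07, in the same RNA classes.

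**Figure D2:**
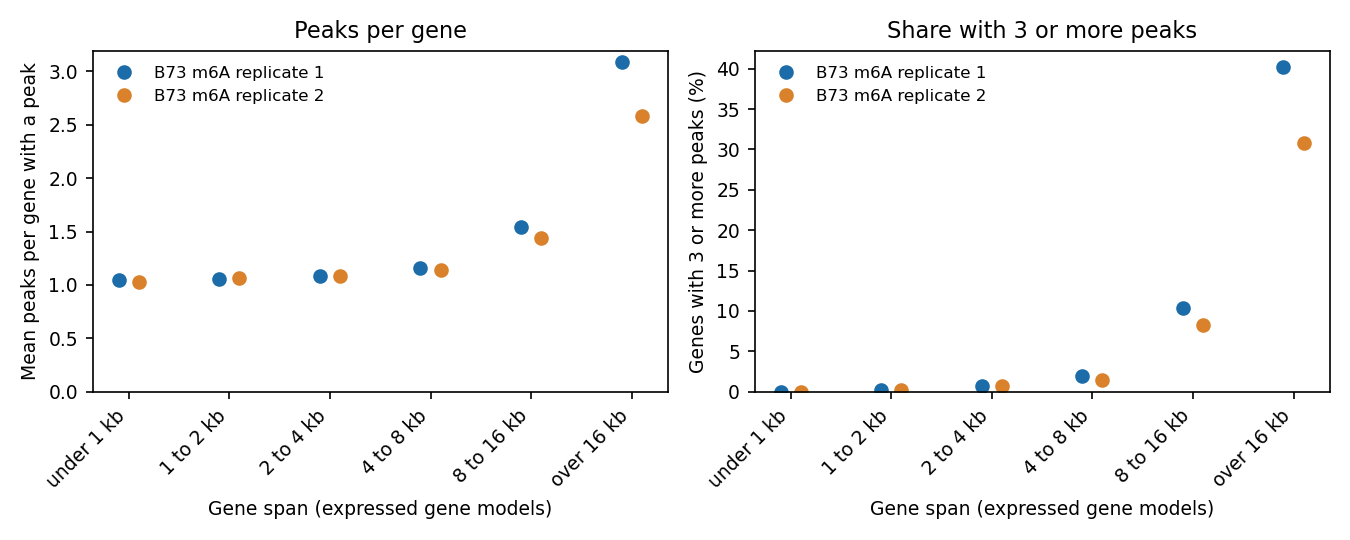
Mean number of peaks per gene with a peak (left) and share of such genes with 3 or more peaks in % (right), by gene span, for expressed gene models; each point is 1 B73 m6A replicate. Both measures are nearly flat up to 8 kb and reach 3.09 and 2.59 peaks per gene, and 40.2% and 30.8%, above 16 kb.

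Summits far inside genes came mainly from these genes of many peaks. Of 3295 and 2610 summits at 2000 bp or more from the 3′ end, 68.0% and 60.6% lay in genes with 3 or more peaks, which held 21.2% and 16.1% of all assigned summits. Spans of over 8 kb held 83.3% and 81.1% of the far summits. Genes with 1 peak had their summit in the last 500 bp in 88.8% and 89.2% of cases.

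The 6 genes with the most peaks were long spans, from 21868 to 64401 bp, carrying rows of peaks. Zm00001d030282 (chromosome 1, 118828597 to 118879142, minus strand, 11.6 and 11.5 FPKM) had 30 and 24 peaks, of which 21 and 20 overlapped a peak of the other list. Adjacent summits were a median of 542 and 546 bp apart, folds ran from 4.41 to 12.6 and from 4.03 to 10.9, and 0 summits lay in the last 500 bp. Zm00001d052943 (chromosome 4, 205690232 to 205738686, plus strand) had 25 and 22 peaks, 18 and 18 of them overlapped. Zm00001d037401 (chromosome 6, 124532947 to 124584221, minus strand) had 21 and 20, with the assigned summit nearest to the end still 9101 and 9104 bp away. Its span overlaps Zm00001d037402 on the opposite strand, and any summit in the shared stretch was assigned to neither gene. Zm00001d038093 (chromosome 6, 147577082 to 147627637, plus strand) had 24 and 19, Zm00001d041880 (chromosome 3, 142132876 to 142197276, plus strand) had 17 and 18, and Zm00001d046221 (chromosome 9, 72853602 to 72875469, plus strand) had 17 and 15. In 3 of the 6, the last 500 bp held an assigned summit in both lists, and in the other 3 in neither. Their mean RNA levels lay between 3.34 and 12.95 FPKM, on both sides of the 5.44 FPKM median of expressed gene models.

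The widest peaks lay in genes that carried several. Zm00001d020053 (chromosome 7, 88878840 to 88893492, minus strand, 3.52 and 3.36 FPKM) had peaks of 2094 and 2118 bp among its 9 and 8 peaks, every one of which overlapped a peak of the other list. Its highest folds, 22.8 and 23.9, were at peaks of 133 and 125 bp in width, 104 and 102 bp from the end. Zm00001d034904 (chromosome 1, 305196308 to 305215804, minus strand) had widest peaks of 2404 and 1394 bp. Zm00001d012797 (chromosome 5, 50443 to 62268, minus strand) had 1176 and 1226 bp. Zm00001d033855 (chromosome 1, 275938957 to 275955287, minus strand) had 1312 and 851 bp, at 66.9 and 66.4 FPKM. Its summits were all placed from 19.2% to 34.5% of the span length after the start, with 0 in the last 500 bp in either list. Although its widest peaks differed, the bases in its 4 and 5 peaks summed to 2481 and 2472.

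Fold fell with the level of RNA. The median fold of assigned peaks was 7.88 and 8.44 in genes of 1 to 2 FPKM, 6.19 and 6.48 at 10 to 20 FPKM, 4.59 and 5.10 at 20 to 50 FPKM, 3.05 and 3.43 at 50 to 100 FPKM, and 2.55 and 2.64 at 100 to 500 FPKM. Among genes of 1 to 10 FPKM it stayed at 7.003 or above. The width did not follow the fold: its median was 121 and 124 bp at 1 to 2 FPKM, 149 and 149 bp at 10 to 20 FPKM and 108 and 108 bp at 100 to 500 FPKM. The median −log10 q was 10.3 and 11.8, 14.4 and 15.7, and 6.25 and 7.72 in the same classes. No protocol in the labels states the control behind the folds, but the names of the deposited peak lists pair IP with CK, and CK is the tag in the titles of the total RNA samples. By these names the denominator of the fold is the same B73 RNA libraries that give the FPKM, so fold and RNA level would share data. How the ratio itself behaves at abundant transcripts and a smaller share of methylated molecules there cannot be told apart.

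**Figure D3:**
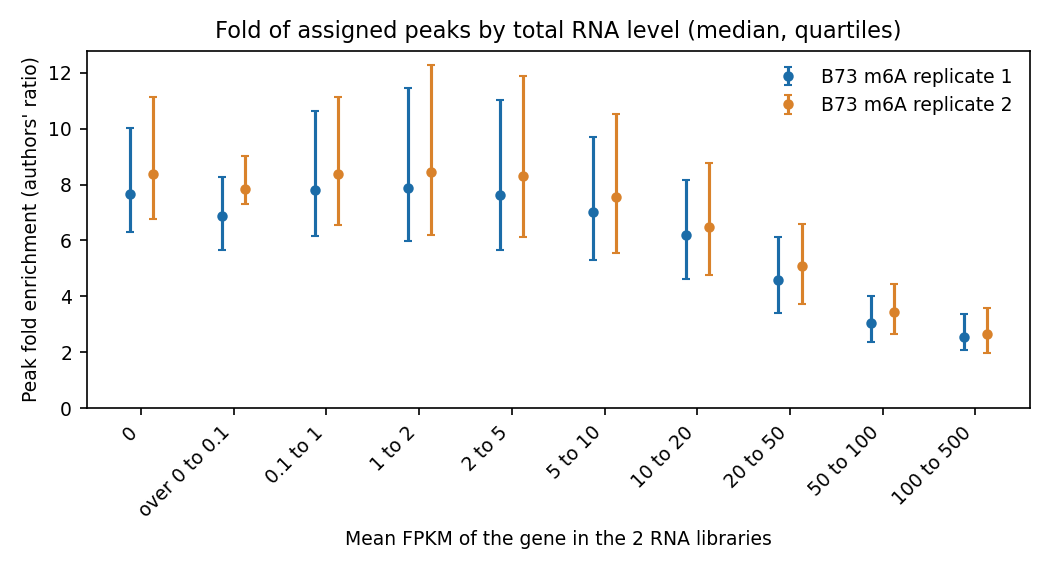
Fold enrichment of assigned peaks, the authors' ratio, by mean FPKM of the gene in the 2 B73 RNA libraries, with points at the median and bars from the lower to the upper quartile for each B73 m6A replicate. Classes with fewer than 20 peaks are left out. The medians lie between 6.89 and 8.44 below 5 FPKM and at 2.55 and 2.64 between 100 and 500 FPKM.

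Whether a gene model had a peak in both lists went with its RNA level in a rise and a fall. A gene model without a peak is not shown to lack m6A. Gene models with a peak in both lists were counted as methylated. They were 8769 of the 17218 expressed gene models, a share of 50.9%, and 23.1% of all 43788 gene models. Single lists had a peak in 53.7% and 54% of the expressed gene models. By mean RNA level the methylated share was 0.673% in genes listed at 0 FPKM in both libraries and 14.1% between 0.1 and 1 FPKM. It was 35.6% between 1 and 2 FPKM, 57.3% between 5 and 10 FPKM and 58.6% between 10 and 20 FPKM. Above that it fell, to 44.6% between 50 and 100 FPKM, 21.3% of 381 genes between 100 and 500 FPKM, and 0 of 103 genes above 500 FPKM. In single lists the shares between 10 and 20 FPKM were 60.9% and 60.9%. Between 100 and 500 FPKM they were 21.8% and 27.3%, so the fall exceeds the spread between replicates. The median −log10 q of assigned peaks was 14.4 and 15.7 between 10 and 20 FPKM. It was lower on both sides, at 8.09 and 9.85 between 0.1 and 1 FPKM and 6.25 and 7.72 between 100 and 500 FPKM. The part of peak detection in the rise and the fall was not tested.

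The fall at the top depended in size on the peak threshold. When weaker peaks than 5-fold were set aside, the methylated share was 45.1% between 5 and 10 FPKM, 18.7% between 20 and 50 FPKM and 3.56% between 50 and 100 FPKM. With a −log10 q of at least 10 it was 42.7%, 36.1% and 18.2% in the same classes. The rise and the fall were present in all 3 settings.

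The methylated share also rose with span. Over all 43788 gene models, the set used for RNA level above, it went from 0.692% under 1 kb to 66.8% above 16 kb. Among expressed gene models the methylated share was 2.95% under 1 kb, 13.8% from 1 to 2 kb, 51.0% from 2 to 4 kb, 72.7% from 4 to 8 kb, 84.5% from 8 to 16 kb and 92.7% above 16 kb. Single lists had close shares, for example 94.5% and 93.1% above 16 kb. Median RNA levels moved the other way, from 6.55 FPKM under 1 kb to 3.68 FPKM above 16 kb. Plus and minus strand genes had shares of 51.2% and 50.6%.

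**Figure D4:**
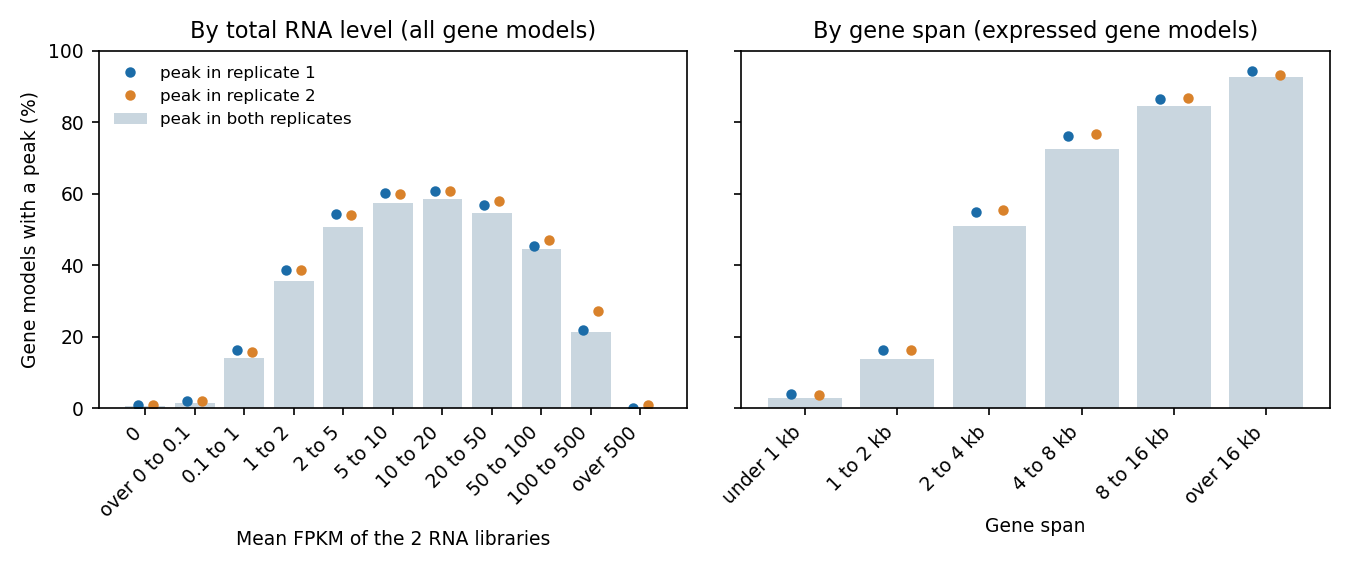
Share of gene models with a peak in both B73 m6A replicates (bars) and in each replicate (points), in %, by mean FPKM over all gene models (left) and by gene span among expressed gene models (right). The share is highest, at 58.6%, between 10 and 20 FPKM and reaches 92.7% above 16 kb.

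RNA level and span each went with the share when the other was held within a class. In genes of 2 to 4 kb the methylated share was 27.7% between 1 and 2 FPKM (636 genes), 61.8% between 10 and 20 FPKM (823 genes), 68.5% between 20 and 50 FPKM (638 genes) and 38.3% above 100 FPKM (115 genes). In genes of over 16 kb it was 85.2% already between 1 and 2 FPKM (149 genes). Genes of under 1 kb stayed at or below 6.17% at every RNA level, with 0 of 181 above 100 FPKM. Short genes were thus rarely methylated at RNA levels at which most long genes were, and the longest genes were mostly methylated at RNA levels at which few short genes were.

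Within deciles of span, methylated genes had more RNA than unmethylated genes. The difference of the median log2(FPKM + 1), averaged over the 10 deciles, was 0.74 ± 0.02 (SD, n = 2 RNA libraries) and was positive in every decile in both libraries. It was widest in the fourth decile, from 2123 to 2854 bp, where the medians were 3.56 and 3.56 in methylated genes and 2.41 and 2.45 in unmethylated genes. In the decile of the longest spans they were 2.34 and 2.38 in methylated genes and 1.98 and 2.02 in unmethylated genes. Counting peaks of at least 5-fold enrichment alone turned the average to −0.07 ± 0.01 (SD, n = 2), while a −log10 q of at least 10 left it at 0.70 ± 0.01 (SD, n = 2). In both settings, genes with weaker peaks only were counted as unmethylated. At 5-fold, this moved most methylated genes of 50 to 100 FPKM, where the methylated share went from 44.6% to 3.56%. The 5-fold groups were thus partly sorted by RNA level. The direction thus differed between these thresholds. The median fold itself fell with RNA level, and its part in this result was not tested, nor was that of detection at weakly expressed genes.

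The most abundant methylated transcripts had low folds at the usual place. Zm00001d031899 (chromosome 1, 205992135 to 205996030, minus strand) had 557.6 and 423.8 FPKM and 1 peak in each list, of folds 2.55 and 4.08, 127 and 113 bp from the end. The next 5 were Zm00001d053432 (chromosome 4, 231193933 to 231195575), Zm00001d015204 (chromosome 5, 79242210 to 79243503), Zm00001d024835 (chromosome 10, 90195370 to 90197131), Zm00001d011833 (chromosome 8, 162293750 to 162297261) and Zm00001d032383 (chromosome 1, 224766461 to 224770369), with means of 360.3 to 410.5 FPKM. Each had 1 peak in each list, 33 to 147 bp from the end, with folds from 1.76 to 2.98. Above 500 FPKM a single gene had a peak in either list, Zm00001d018030 (chromosome 5, 212391759 to 212393282, plus strand, 748.4 and 677.2 FPKM), with a fold of 1.85 in replicate 2 and none in replicate 1; it was singled out after its values were seen.

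Among the most abundant transcripts without a peak, Zm00001d001139 (chromosome 7, 46263322 to 46263932, plus strand) reached 44698 and 47190 FPKM. Zm00001d019605 (chromosome 7, 46267841 to 46280742, minus strand) had 6183 and 6039 FPKM. Its span of 12902 bp overlaps 4 other features, on both strands, so its reads cannot be told apart from theirs. The others were Zm00001d031168 (chromosome 1, 180447018 to 180448137), Zm00001d018797 (chromosome 7, 5387875 to 5388613), Zm00001d021435 (chromosome 7, 152283433 to 152284280) and Zm00001d049387 (chromosome 4, 28605301 to 28606526), with means of 3420 to 4583 FPKM and spans of 739 to 1226 bp. Of the 103 genes above 500 FPKM, 11 had spans of 2000 bp or more, and 11 of these 11, Zm00001d019605 among them, had a peak in neither list. Between 100 and 500 FPKM, 64 of the 153 genes with spans of 2000 bp or more (41.8%) had a peak in both lists.

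Exceptions to the rule of span were few. The shortest expressed methylated genes were Zm00001d036441 (chromosome 6, 88675859 to 88676185, minus strand, 327 bp, folds 2.17 and 2.74), Zm00001d023030 (chromosome 1, 305176129 to 305176507, minus strand, 379 bp, folds 13.1 and 13.9), Zm00001d011185 (chromosome 8, 142292769 to 142293158, plus strand, 390 bp, folds 6.60 and 4.27) and Zm00001d012423 (chromosome 8, 174293032 to 174293445, plus strand, 414 bp, folds 2.71 and 3.61). In Zm00001d036441 and Zm00001d012423 the summits lay nearer the start than the end of the span. The longest expressed genes without a peak were Zm00001d016863 (chromosome 5, 178551174 to 178635959, minus strand, 84786 bp, 3.98 and 3.25 FPKM), Zm00001d018704 (chromosome 7, 2767046 to 2847029, plus strand, 79984 bp, 12.9 and 14.4 FPKM), Zm00001d006475 (chromosome 2, 209348328 to 209417348, minus strand, 69021 bp, 11.6 and 7.25 FPKM) and Zm00001d008913 (chromosome 8, 25127710 to 25175032, plus strand, 47323 bp, 1.41 and 1.27 FPKM). Zm00001d016863 and Zm00001d006475 each overlap another gene model on the opposite strand.

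Peaks were also found in genes with little total RNA. Of the 10098 methylated gene models, 1329 (13.2%) were not called expressed, with a median of 0.675 FPKM, and 865 of them had a mean of at least 0.5 FPKM. The 114 listed at 0 FPKM in both libraries had median top folds of 9.08 and 8.39, and 13 of the 114 overlapped another feature. A listed 0 may come from an estimate that failed, so these genes are not shown to lack RNA.

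Along the genome, peaks followed expressed genes. Density by chromosome ranged from 6.88 and 6.47 peaks per Mb on chromosome 4 to 9.71 and 8.96 on chromosome 5, and expressed gene models ranged from 6.81 per Mb on chromosome 4 to 9.38 on chromosome 5. Across the 10 chromosomes the Pearson correlation of peaks per Mb with expressed gene models per Mb was 0.983 in replicate 1 and 0.982 in replicate 2; the chromosomes share libraries and the number is a description. Per 100 expressed gene models, chromosomes held 98.4 to 103.7 peaks in replicate 1 and 91.3 to 97.1 in replicate 2, and replicate 1 had more on each of the 10 chromosomes. The methylated share of expressed gene models ranged from 49.0% on chromosome 3 to 53.2% on chromosome 5, around the 50.9% of all. Chromosomes therefore differed in number of peaks far more than in the share of expressed genes that carried one.

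The ends of the chromosomes were dense and the middles sparse, but expressed genes in the middle carried more peaks. With the 10 chromosomes cut into 10 equal parts each and pooled part by part, the last part held 15.7 and 14.7 peaks per Mb and the fifth 4.51 and 3.98. Expressed gene models went from 12.5 per Mb in the initial part through 3.31 in the fifth to 16.7 in the last. Per 100 expressed gene models, however, the fifth part held 136.4 and 120.5 peaks, against 90.0 and 86.0 in the initial part. This ratio counts all peaks of a part, also those outside gene spans and in genes not called expressed. The share of expressed genes that were methylated was flat, between 49.0% and 54.8% in all 10 parts, and what moved was the number of peaks per gene with a peak, at 1.76 and 1.59 in the fifth part against 1.25 and 1.21 in the initial one. The share of peaks outside all gene spans moved the same way, at 21.6% and 19.7% against 12.6% and 11.2%. Median spans of the expressed genes were 3698 bp in the fifth part and 3500 bp in the initial one. These medians do not show how many genes of over 8 kb, where peaks per gene rise, each part held. Whether gene span goes with the difference between parts was not tested.

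**Figure D5:**
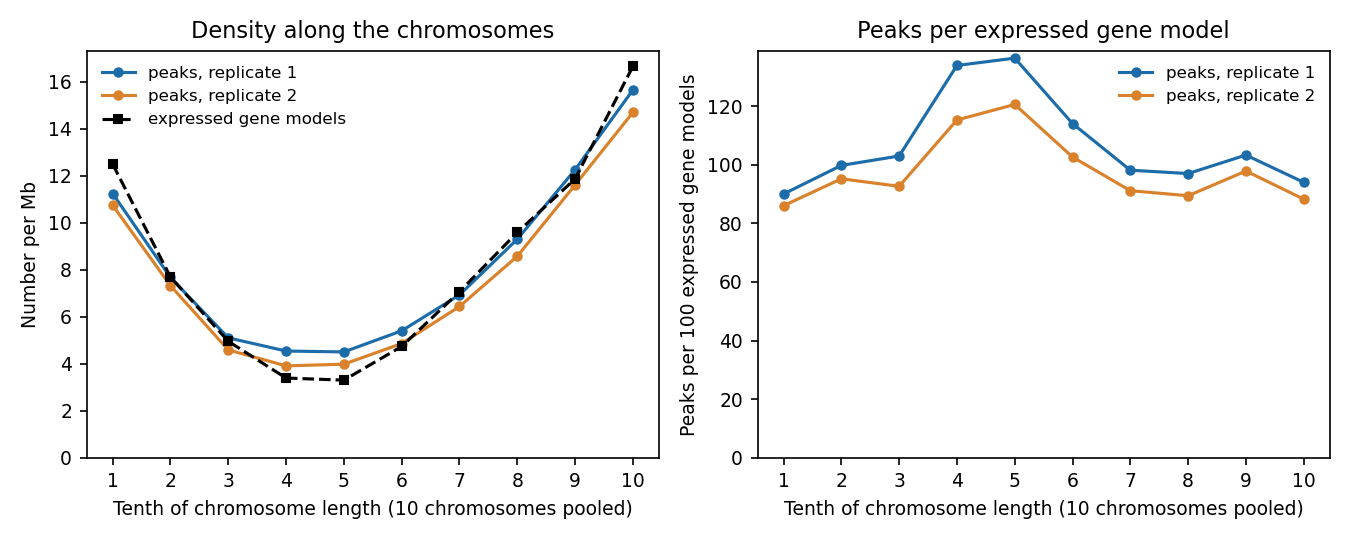
Peaks and expressed gene models per Mb (left) and peaks per 100 expressed gene models (right) in 10 equal parts of chromosome length, with the 10 chromosomes pooled; lines join the values of each B73 m6A replicate. Density per Mb is lowest in the fourth and the fifth part, where peaks per 100 expressed gene models are highest, at 136.4 and 120.5 in the fifth. The ratio on the right counts all peaks of a part, also those outside gene spans.

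At the scale of 1 Mb, the peaks were gathered in part of the genome. Of 2109 windows, 23.6% and 23.4% held 50% of the peaks of a list, and 4.03% and 4.41% held none. The densest window of replicate 1 was chromosome 6, 165000001 to 166000000, with 42 peaks, and 36 in replicate 2, in 23 and 22 genes. One gene in it, Zm00001d038847, had 8 and 7 peaks. The densest window of replicate 2 was chromosome 5, 1000001 to 2000000, with 42 peaks, and 38 in replicate 1, in 32 and 30 genes, at most 3 peaks in a gene. Both windows were thus dense in both lists, one partly through a gene of many peaks and the other through many genes of 1 peak.

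Summits outside all gene spans numbered 2621 and 2169. Of these, 612 and 597 (23.3% and 27.5%) lay up to 500 bp past the 3′ end of the nearest gene, against 62 and 53 up to 500 bp before a 5′ end, and 969 and 717 (36.97% and 33.1%) lay over 5000 bp from any gene. Their median fold, 6.66 and 7.29, was close to the 6.90 and 7.33 of peaks assigned to a gene, while their median width of 98 and 99 bp was below 133 and 136 bp. A partner in the other list was found for 68.0% and 81.5% of them.

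Set beside Mo17 in 4 comparisons, no difference could pass a test with 2 lists in each line. The smallest two-sided p of the exact permutation test in this design is 0.333. The share of expressed gene models with a peak was 53.8% ± 0.185 in B73 and 45.6% ± 1.14 in Mo17 (SD, n = 2 each; exact permutation p = 0.333, 0.444 after Benjamini-Hochberg adjustment over the 4). The share of assigned summits in the last 500 bp was 71.2% ± 2.61 in B73 and 65.3% ± 1.52 in Mo17 (SD, n = 2 each; exact permutation p = 0.333, adjusted 0.444). The median width was 128.5 ± 3.54 bp in B73 and 134.5 ± 3.54 bp in Mo17 (SD, n = 2 each; exact permutation p = 0.333, adjusted 0.444). In these 3 the lists of the lines did not overlap. The share of peak-bearing genes with exactly 1 peak was 83.5% ± 1.503 in B73 and 84.9% ± 2.12 in Mo17 (SD, n = 2 each; exact permutation p = 0.667). The lists overlapped, and without Mo17 replicate 2 the difference of −1.41 percentage points became 0.0895. Each line has its own gene models, so all but the width also carry any difference between annotations.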

How the data were processed

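The authors deposited 1 peak list per m6A sample and 1 FPKM table per RNA sample. The submitters' processing notes name Trimmomatic 0.35, HISAT2, MACS2 and the build B73 RefGen_v4. The sources used here do not give the FPKM tool, the annotation release or the strand setting. The names of the deposited peak lists (IP against CK) and the CK in the RNA samples' titles point to the total RNA libraries as the control of the peaks, which no protocol states. The deposited lists hold the authors' fold enrichment (a ratio), −log10 p, −log10 q, an integer score and the summit offset of each peak; the p-values behind them were not recomputed. FPKM are fragments scaled by gene length and library size, as deposited by the authors; they keep no read totals, so depth is unknown and counting error could not be stated.

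The summit was taken as the start plus the offset plus 1. Peaks went to a gene where the summit fell in exactly 1 of 45577 feature spans (1 feature with unequal spans was left out). Summits in several spans, 265 and 276, were left out. RNA classes used the mean of both libraries. Medians of log2(FPKM + 1) were compared within deciles of span. The B73 and Mo17 lists were compared with an exact permutation test of means. The assignment was tested on simulated summits. The named genes are the 6 highest by fold, the 6 with most peaks, the 4 with the widest peaks, the 6 most abundant with and without peaks, and the 4 shortest with and longest without peaks. The members and lists were chosen with earlier results of these data known. Gene lists by description could not be used, since 0 gene models matched the reference table (153 of 154 microRNA genes did). Polysome samples were not used here. Python 3.11.15, pandas 2.3.3, numpy 2.4.6 and scipy 1.17.1 were used.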

Additional observations from a re-analysis of the deposited data

How the results depend on the processing

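The direction of each B73 minus Mo17 difference held in all alternatives run but 1. The difference in the share of peak-bearing genes with exactly 1 peak, −1.41 percentage points, was 0.0895 without Mo17 m6A replicate 2. Leaving out lists in turn, that difference ranged from −2.90 to 0.0895. A replicate block (sign flips of same-numbered lists) gave the same differences, 8.23 percentage points for genes with a peak for example, with an exact permutation p of 0.5, the smallest it allows; the labels do not tie same-numbered samples together.

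With peaks of at least 5-fold enrichment, 86.8% of genes with a peak had exactly 1. The median width was then 136.5 bp, the median fold 8.07 and the median distance to the 3′ end 208.5 bp. The methylated share of expressed gene models was 37.3%, and the share of peaks overlapped by the other list 77.8%. The RNA difference within span deciles was −0.0715, with genes of weaker peaks only counted as unmethylated. With a −log10 q of at least 10 there were 1.07 peaks per gene with a peak, and 94.2% of such genes had exactly 1. The median width was 168.5 bp, the median fold 9.45 and the median distance 179 bp. The last 500 bp held 85.7% of assigned summits, the methylated share was 35.3% and the RNA difference 0.70. The methylated share was 52.2% with shared summits given to every gene, 49.95% with spans lengthened by 500 bp, 54.0% at 5 FPKM and 23.1% with no filter. It was 49.5% without RNA replicate 1 and 49.7% without RNA replicate 2. Without m6A replicate 1 or 2, a peak in the remaining list was enough, and the share was 54.0% and 53.7%. The RNA difference was 0.86 with a pseudocount of 0.1 and 2.86 with no filter on FPKM, where genes that are not expressed join both groups. It was 0.76 without RNA replicate 1 and 0.73 without RNA replicate 2. With groups set by the remaining list alone, it was 0.71 without m6A replicate 1 and 0.61 without m6A replicate 2. Requiring overlap of at least 50% of both peaks left 75.3% of peaks overlapped. The search for sequence motifs at summits was not run, since it needs a genome of the build of the files. Span rather than exon positions, unknown depth and 2 replicates per assay limit what these values can show.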
